A study of Mus musculus with 3 samples.

Results

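Histamine and serotonin are the amines that mast cells release from their granules, and 6 genes for making, storing, taking up and inactivating them were followed here: Hdc, Tph1, Ddc, Slc18a2, Slc6a4 and Hnmt. They were chosen by gene name among the non-control spots of the arrays, which gave 9 probes, each printed once, of 39429 probes and 6 genes of 31131 in all. The RNA came from mast cells cultured from the bone marrow (BMMCs) of male C57BL/6 mice that lack Pafah2, a phospholipase A2 which frees oxidised fatty acids from phospholipids. The first array held cells given an omega-3 epoxide mixture at 300 nM in all, 2 parts 17,18-EpETE to 3 parts 19,20-EpDPE, and the second held cells given 0.5 µM GW9662, which blocks the nuclear receptor PPAR gamma. The third array held cells given the solvent DMSO alone (vehicle). Every treatment lasted 12 h, the mice were 12 weeks old by the sample labels, and all 3 groups lack Pafah2, so no array shows the wild type. Neither the deleted part of the gene nor the number of mice or cultures behind an array is given in the sources used here. There was 1 array per group, so no comparison has a replicate check and none was tested.

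Histidine decarboxylase, encoded by Hdc, makes histamine from histidine in a single step. Serotonin takes a pair of steps: tryptophan hydroxylase 1 (Tph1) hydroxylates tryptophan, and aromatic amino acid decarboxylase (Ddc) removes the carboxyl group. The vesicular transporter VMAT2, encoded by Slc18a2, loads both amines into granules, the plasma membrane transporter SERT (Slc6a4) takes serotonin back into the cell, and histamine N-methyltransferase (Hnmt) inactivates histamine inside cells. Rodent mast cells are known for storing serotonin beside histamine.

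The probe sequences show which stretch of each transcript a value comes from, so those on which the readings turn are printed here, 5′ to 3′ on the transcript strand, with coordinates on mm9 as the files give them. Hdc was read by 1 probe, at chr2:126419516-126419575 on the minus strand, in which 1 of the 3 reading frames holds no stop codon.
Hdc: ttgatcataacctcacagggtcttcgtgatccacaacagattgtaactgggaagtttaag
Ddc was read by a probe at chr11:11714106-11714165 and by one 62.2 kb upstream in the gene, at chr11:11776262-11776321, both on the minus strand. Capitals in the downstream probe mark AATAAA, a polyadenylation signal, shown within a 30-base stretch. The upstream probe has none and is printed whole.
Ddc downstream: ggctaaatactaAATAAAcaacctatgtgc
Ddc upstream: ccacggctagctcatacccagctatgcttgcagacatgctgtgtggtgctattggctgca
The Slc6a4 probe (chr11:76845777-76845836, plus strand) holds the variant signal ATTAAA, again in capitals within 30 bases.
Slc6a4: cctctaatttttcttacATTAAAcagattc
AATAAA or ATTAAA, searched on the transcript strand only, was present in 2 of the 9 probes and in 16.7% of the 39429 probes on the array. The Slc18a2 probes lie at chr19:59370106-59370165 and chr19:59370153-59370212 on the plus strand and share 13 bases, in capitals in the 30 bases at their joining ends.
Slc18a2 upstream: gatcagcaaaggcatgcCTGTTACTGCTCT
Slc18a2 downstream: CTGTTACTGCTCTccaaagaaaaaagaaaa
Tph1 was read by 1 probe at chr7:53902553-53902612, and Hnmt by probes at chr2:23858856-23858915 and chr2:23859071-23859130, all on the minus strand.

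A level is the log2 of the processed signal over the array's 75th percentile, and a log2 ratio is the difference of 2 levels. The scanner software called 54.6% of the 43020 non-control spots well above background for epoxides, 53.3% for GW9662 and 52.3% for vehicle. The treated arrays cannot be assigned with certainty. The authors' deposited value table lists, under each treated sample, the values of the other treated sample's scanner file. Names of arrays here follow the scanner files. If the value table is right, each value of a treated array belongs to the other treatment. Rows 181 to 400 of 532 are those in which repeated copies of a probe disagreed most (in bands of 20 rows, 2.12% to 13.9% of copies were at least 2-fold away from their probe's median). They hold the only Hdc probe, the only Slc6a4 probe, the detected Hnmt probe and the upstream Slc18a2 probe. Mast cell markers were read well above background on all 3 arrays for 13 of 14 genes, Kit and Fcer1a among them, and the tryptase gene Tpsab1 was not. Of the basophil markers 4 of 5 were read on all arrays, and of the platelet and megakaryocyte markers 6 of 8.

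No gene of the 6 differed by 2-fold or more in any comparison. Against that, 2.28% of the 15812 genes measured on both arrays did so for epoxides over vehicle, 0.823% of 15795 for GW9662 over vehicle and 1.16% of 16044 for epoxides over GW9662. At 1.5-fold, Hnmt alone was past the threshold for epoxides over vehicle, beside 10.2% of all measured genes. No member was past it for GW9662 over vehicle (1.84% of genes) or epoxides over GW9662 (5.73%). On both treated arrays Hnmt was the member farthest from vehicle, and it was lower. Ddc was higher and Slc6a4 lower than with vehicle on both treated arrays, by less than 1.5-fold. The histamine gene Hdc lay on opposite sides of its vehicle level on the treated arrays, except after normexp background correction. In a bulk RNA sample, fewer cells that carry a transcript and less of it per cell cannot be told apart. The treated arrays are also set against the same vehicle array, so they share its errors.

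**Figure D1:**
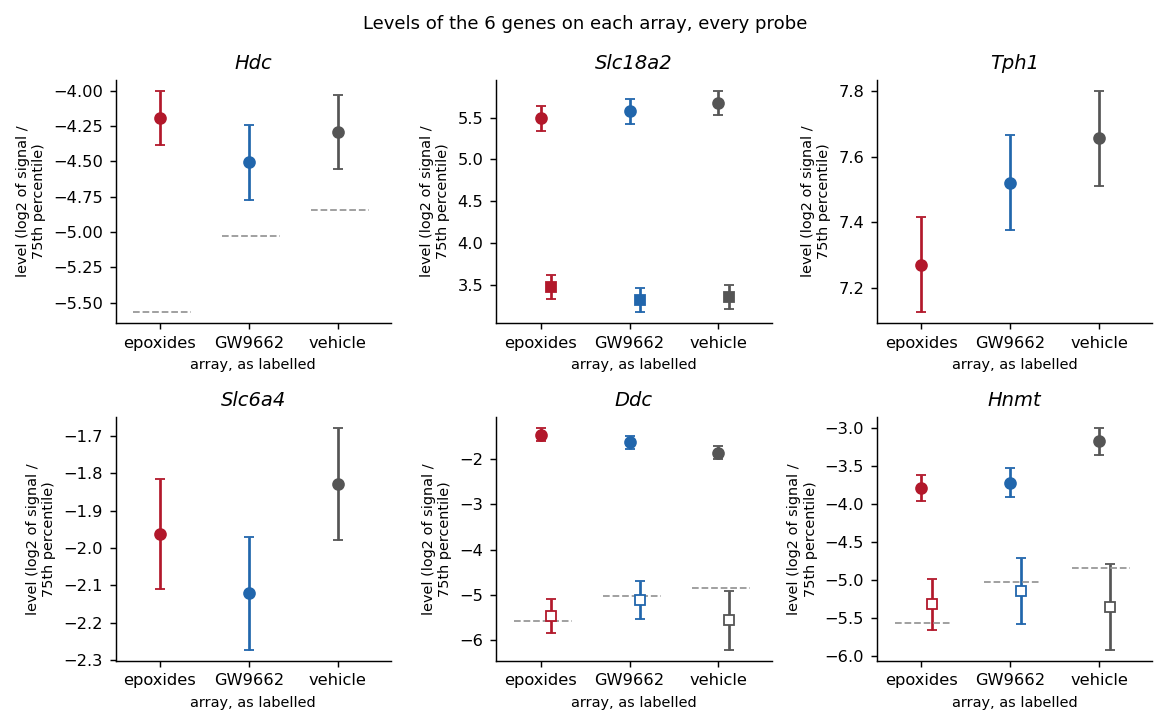
Level of each probe (y axis, log2 of the signal over the array's 75th percentile, on a scale of its own in each panel) on the arrays labelled epoxides, GW9662 and vehicle. Bars are the spot error estimated by the scanner software, circles the brighter and squares the dimmer probe of a gene, open symbols are not well above background, and dashed lines mark each array's lowest well-detected level; Hnmt stands at -3.78 and -3.72 on the treated arrays and at -3.17 with vehicle.

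Hdc, the gene for histamine synthesis, had a processed signal of 127 on the epoxide array, 88.1 on the GW9662 array and 97.8 on the vehicle array, in the scanner's intensity units. These are levels of -4.19, -4.51 and -4.29 in the same order. The probe was well above background on every array, but the GW9662 and vehicle levels lay only 0.52 and 0.55 above the lowest level so called there. The log2 ratio was 0.10 for epoxides over vehicle and -0.22 for GW9662 over vehicle, and 0.31 between epoxides and GW9662. The scanner software's own error of these ratios was 0.33, 0.38 and 0.33, larger than each of them. Among multi-copy probes with a level below -3 in the same rows, 95% of 120 copies lay within 0.42 of their probe's median ratio for epoxides over vehicle and within 0.46 for GW9662 over vehicle. These ranges, here and for the genes below, count only copies well above background and not marked as outliers on all 3 arrays. Copies that failed either check are left out, so the scatter of dim spots may be wider. The ranges cover the scatter of spots within the arrays only, and not the variation between cultures or arrays. Both Hdc readings stayed inside these ranges. The Hdc ratio depended on the scaling: for epoxides over vehicle it was 0.37 with a trend in probe signal and GC content taken out of each array, 0.41 after quantile normalization, 0.35 after cyclic loess and -0.07 after normexp background correction. For epoxides over GW9662 it was 0.53, 0.56 and 0.49 in the first 3 of these. These values were larger than the software error and than the copy range of 0.39 for that comparison, both taken in the main setting. There, 737 genes like Hdc in signal and GC content had 5th and 95th percentiles of -1.18 and 0.35 for epoxides over vehicle. The percentiles were -0.63 and 0.43 for GW9662 over vehicle. For epoxides over GW9662, 821 such genes had a median of -0.29 and a 95th percentile of 0.38. The main Hdc ratios lay inside these limits in all 3 comparisons. GW9662 over vehicle stayed between -0.22 and -0.14 in the 8 alternatives on the scanner files that measured Hdc. Averaging probes, keeping marked spots and keeping dim probes were among the 8 and gave the main value again.

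Tph1, the first enzyme of serotonin synthesis, had a signal of 357667 on the epoxide array, 367988 on the GW9662 array and 386312 on the vehicle array, with no saturated pixel flag on any. Its levels were 7.27, 7.52 and 7.66, so both treated arrays lay below vehicle. The log2 ratio was -0.38 ± 0.20 (software error) for epoxides over vehicle and -0.14 ± 0.20 for GW9662 over vehicle. The first is 1.31-fold lower. In the rows outside 181 to 400, 95% of 210 copies of probes at a level of 3 or more stayed within 0.096 and 0.070 of their probe's median, and both Tph1 ratios were outside those ranges. Only 18 other genes had a level within 0.5 and a probe GC content within 5 percentage points of it, and their median ratios were -0.31 and -0.08. After the trend in signal and GC content was taken out, the Tph1 ratio for epoxides over vehicle was 0.02 and that for GW9662 over vehicle was -0.04.

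Ddc, the enzyme of the second step, went the other way. Its downstream probe had a signal of 833 on the epoxide array and 642 on the GW9662 array, against 526 with vehicle. The levels were -1.47, -1.64 and -1.86, so both treated arrays lay above vehicle. The log2 ratio was 0.39 ± 0.21 for epoxides over vehicle (1.31-fold) and 0.22 ± 0.21 for GW9662 over vehicle (1.17-fold). The spot lies outside rows 181 to 400, where 95% of 289 copies of probes at a level from -3 to 0 stayed within 0.11 and 0.08 of their probe's median ratio. Both Ddc ratios were outside those ranges of spot scatter. The spot itself was uneven: the SD of its pixels was 20.8%, 21.9% and 19.9% of the raw signal on the epoxide, GW9662 and vehicle arrays. For Slc6a4, at a similar level, it was 8.36%, 11.3% and 13.4%. Of all measured genes, 96.6% had a lower ratio than Ddc for epoxides over vehicle and 95.9% for GW9662 over vehicle. Genes of like signal and GC content, 670 in all, had a 95th percentile of 0.38 in the first comparison and of 0.26 in the second. Ddc thus lay just past that value on the epoxide array and inside it on the GW9662 array. In the 10 alternatives on the scanner files that measured it, Ddc kept its direction in both comparisons, between 0.26 and 0.48 on the epoxide array and between 0.19 and 0.25 on the GW9662 array. Several of these could not change it: leaving out rows 181 to 400, averaging probes, keeping marked spots and keeping dim probes each gave the main value again. The upstream probe was not well above background on any array, with levels of -5.46, -5.11 and -5.56, and gave no ratio. The Ddc probes are listed under different RefSeq transcripts, and whether they read the same transcripts was not tested.

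**Figure D2:**
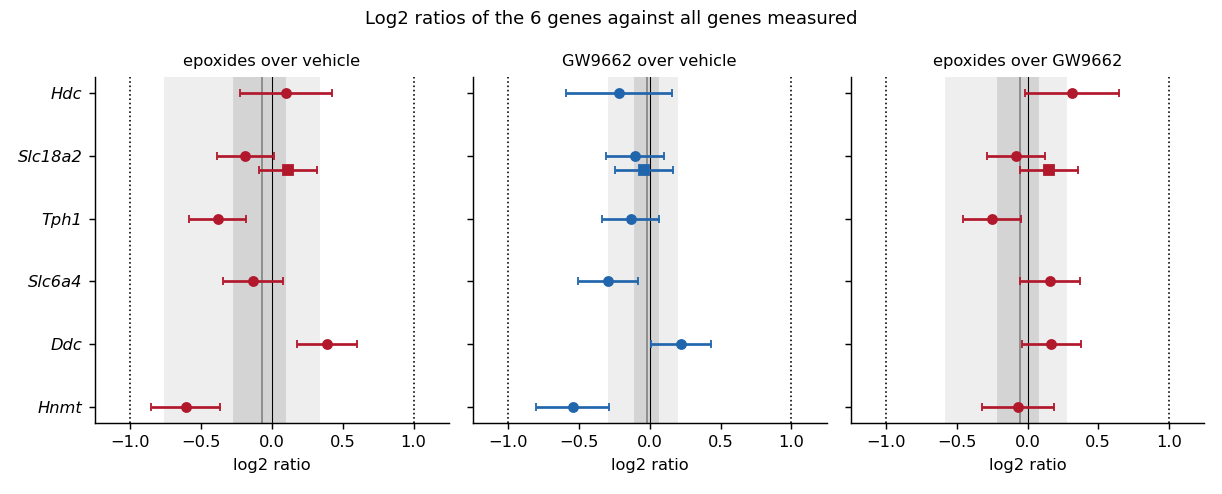
Log2 ratio (x axis) of each probe well above background on both arrays, for the 3 comparisons; bars are the scanner software's spot error, the square is the downstream Slc18a2 probe. Dark and light grey bands hold the middle 50% and 90% of all measured genes, the grey line is their median and dotted lines mark 2-fold, which no member reaches.

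Slc18a2, the granule transporter of both amines, was read by 2 overlapping probes that did not give the same direction for epoxides over vehicle. The upstream probe had a signal of 104041 on the epoxide array and 95408 on the GW9662 array, against 97981 with vehicle, which are levels of 5.49, 5.57 and 5.68. The downstream probe had a signal of 25601 on the epoxide array, 19926 on the GW9662 array and 19576 with vehicle, and levels of 3.47, 3.31 and 3.35. For epoxides over vehicle the log2 ratio was -0.19 with the upstream probe and 0.11 with the downstream one, each ± 0.20. For GW9662 over vehicle it was -0.10 and -0.04. For copies of probes as bright in the same rows, 95% lay within 0.074 and 0.065 (upstream probe) and within 0.096 and 0.070 (downstream probe), so only the downstream ratio of GW9662 over vehicle was inside. The 321 genes like the upstream probe in signal and GC content had a median of -0.22 for epoxides over vehicle. Their 5th and 95th percentiles were -0.43 and 0.01 there, and -0.14 and 0.08 for GW9662 over vehicle. Both upstream ratios lay inside. The probes start 47 bases apart in the same transcript and differ in GC content (43.3% upstream and 35% downstream), in signal and in whether they lie in rows 181 to 400. The part of each in their disagreement was not tested. After the joint trend in signal and GC content was taken out, both gave 0.03 for epoxides over vehicle, and they gave -0.05 and -0.06 for GW9662 over vehicle. No difference in Slc18a2 was shown by both probes in the comparison with epoxides.

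Slc6a4, the serotonin transporter, had a signal of 594 on the epoxide array, 460 on the GW9662 array and 539 on the vehicle array. The levels were -1.96, -2.12 and -1.83, lowest on the GW9662 array. The log2 ratio was -0.13 ± 0.21 for epoxides over vehicle and -0.29 ± 0.21 for GW9662 over vehicle, the second being 1.23-fold lower. In the same rows, 95% of 235 copies of probes at a level from -3 to 0 lay within 0.15 of their probe's median for the first ratio and within 0.17 for the second. The epoxide reading stayed inside that range of spot scatter and the GW9662 reading did not. Of all measured genes 4.81% had a lower ratio for GW9662 over vehicle. Its 619 genes of like signal and GC content had a 5th percentile of -0.26 there, so Slc6a4 lay just below it. Slc6a4 stayed below vehicle in all 8 alternatives on the scanner files that measured it, from -0.23 to -0.02 on the epoxide array and from -0.32 to -0.27 on the GW9662 array. Averaging probes, keeping marked spots and keeping dim probes were among the 8 and gave the main value again.

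Hnmt, which methylates histamine, had a signal of 168 on the epoxide array and 152 on the GW9662 array, against 212 with vehicle. The levels of -3.78 and -3.72 on the treated arrays were close to each other and below the -3.17 of vehicle. The log2 ratio was -0.61 ± 0.24 for epoxides over vehicle (1.53-fold lower) and -0.54 ± 0.26 for GW9662 over vehicle (1.46-fold lower). The ratio of epoxides over GW9662 was -0.07 ± 0.25. Both ratios over vehicle lay outside the ranges of spot scatter, 0.42 and 0.46, that held 95% of the counted copies of probes of like level in the same rows. Copies not well above background on all arrays were not counted there. Of all measured genes, 8.23% had a lower ratio for epoxides over vehicle and 1.35% for GW9662 over vehicle. Among genes of like signal and GC content the 5th percentile was -0.84 for epoxides over vehicle and -0.43 for GW9662 over vehicle. The Hnmt reading was therefore inside the middle 90% of such genes on the epoxide array and outside it on the GW9662 array. The spot lies in row 359, within rows 181 to 400. Its band, rows 341 to 360, had the highest share on the array of copies at least 2-fold away from their probe's median, 13.9%. The SD of the spot's pixels was 13.4% and 12.8% of the raw signal on the treated arrays and 17.0% with vehicle. The other Hnmt probe, 155 bases away and outside those rows, was not well above background on any array (levels of -5.32, -5.14 and -5.35). Hnmt therefore has no reading outside rows 181 to 400. In the 8 alternatives on the scanner files that measured it, the ratio ran from -0.61 to -0.39 on the epoxide array and from -0.55 to -0.42 on the GW9662 array. It was at least 1.5-fold lower for epoxides over vehicle in 4 of the 8 and less than that in the other 4. Of the 4 past 1.5-fold, only removal of the trend in signal and GC content changed the value. Averaging probes, keeping marked spots and keeping dim probes gave the main value again.

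Across the 6 genes, 2 had a positive and 4 a negative ratio for epoxides over vehicle, with a median of -0.16 beside -0.07 over all measured genes. For GW9662 over vehicle 1 was positive and 5 were negative, with a median of -0.18 beside -0.02. For epoxides over GW9662, 3 were positive and 3 negative, with a median of 0.05 beside -0.06. That last comparison uses the same treated arrays as the others and adds no separate reading. Over all measured genes, negative ratios numbered 9662 of 15812, 9134 of 15795 and 9807 of 16044 in the same order of comparisons. Mast cell markers also had medians below 0, -0.08 for epoxides over vehicle and -0.06 for GW9662 over vehicle over 13 genes. The medians of all measured genes were -0.07 and -0.02. Their summed level over all 14 was 747 times the 75th percentile on the epoxide array and 847 times on the GW9662 array, against 920 times with vehicle. Very bright probes weigh most in it, such as Cpa3 with a vehicle level of 7.61 and a ratio of -0.68 for epoxides over vehicle. Other very bright genes were lower as well: the 18 like Tph1 had a median of -0.31 in that comparison. The part of these markers in the readings of the 6 genes was not tested. Basophil markers summed to 23.6, 24.0 and 25.4 times the 75th percentile on the epoxide, GW9662 and vehicle arrays, and platelet and megakaryocyte markers to 25.8, 26.2 and 27.9 times. Markers of other cells were mostly dim, with few read on all arrays. The neutrophil marker Elane (levels of 0.22, 0.66 and 0.73 on the epoxide, GW9662 and vehicle arrays) and the erythroid marker Epor (0.17, 0.24 and 0.27) lay above the 75th percentile. Neutrophil markers (3 of 9) summed to 1.34, 1.99 and 1.93 times, macrophage markers (3 of 8) to 0.594, 0.609 and 0.570 times, lymphocyte markers (1 of 7) to 0.437, 1.18 and 1.01 times and erythroid markers (2 of 5) to 1.23, 1.32 and 1.38 times, in the same order of arrays. Their measured genes had median ratios for epoxides over vehicle of -0.51 (neutrophil), -0.46 (macrophage), -1.09 (Cd3e alone, of the lymphocyte list) and -0.28 (erythroid). All measured genes had a median of -0.07 and a 5th percentile of -0.76. Dim genes outside these lists were also low in part. Genes like Hdc in signal and GC content (41.7%) had a median of -0.43, and those like Hnmt (35%) had 0.07. No such reference was taken for the marker lists. The part of these lists was not tested either. These sums add probes of unlike brightness and are led by the brightest.

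**Figure D3:**
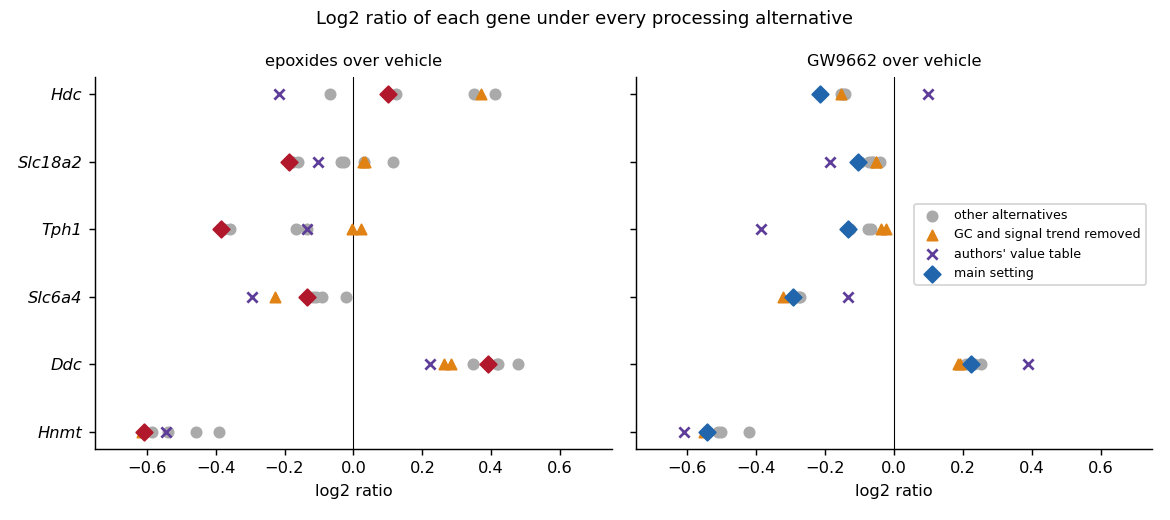
Log2 ratio (x axis) of each of the 6 genes under the main setting (diamond) and every alternative that measured it, the crosses being the authors' value table with its exchanged columns, for epoxides over vehicle and GW9662 over vehicle. Ddc stays above 0 and Slc6a4 and Hnmt below 0 throughout, whereas for epoxides over vehicle Tph1 and Slc18a2 move to about 0 and Hdc moves away from 0 (0.37) once the trend in signal and GC content is taken out. Alternatives that left a value unchanged lie under the diamond.

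The other genes around these amines were taken from 6 lists with 62 genes, of which 26 were measured in each comparison over vehicle. None of the 26 differed by 2-fold, beside 2.28% of all measured genes for epoxides over vehicle and 0.823% for GW9662 over vehicle. For epoxides over vehicle 12 had a positive and 14 a negative ratio, with a median of -0.04. For GW9662 over vehicle the counts were 9 and 17, with a median of -0.03. Of all measured genes, 9662 of 15812 and 9134 of 15795 had a negative ratio in these comparisons. The lowest of the 26 for epoxides over vehicle, -0.63, lay above the 5th percentile of all measured genes, -0.76. The probes of Aanat, Gchfr and Haao below have GC contents of 55%, 55% and 51.7%. These ratios were not set against genes of like signal and GC content.

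Of the enzymes that break these amines down, 7 of 13 were measured. Monoamine oxidase B (Maob), which oxidises amines, had levels of 4.59, 4.49 and 4.54 on the epoxide, GW9662 and vehicle arrays, and monoamine oxidase A (Maoa) was not well above background on any. Aoc1, the diamine oxidase that degrades histamine outside cells, and Hal, which diverts histidine from histamine synthesis, were not well above background on any array either. The aldehyde dehydrogenase Aldh9a1 had ratios of 0.19 for epoxides over vehicle and 0.29 for GW9662 over vehicle. Aanat, which acetylates serotonin towards melatonin, had levels of -2.64, -2.09 and -2.02, a ratio of -0.63 for epoxides over vehicle and -0.07 for GW9662 over vehicle. The amine oxidase Aoc2 had 0.12 and -0.03, the aldehyde dehydrogenase Aldh2 had -0.09 and -0.03, and Aldh7a1 had -0.03 and -0.14.

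Tryptophan hydroxylase needs tetrahydrobiopterin and the decarboxylases need pyridoxal phosphate, and 10 of 11 genes listed for their supply were measured. Gch1, the first enzyme of tetrahydrobiopterin synthesis, had levels of 5.09, 5.05 and 5.14 on the epoxide, GW9662 and vehicle arrays, ratios of -0.05 and -0.09. Its feedback partner Gchfr had -0.33 for epoxides over vehicle and -0.11 for GW9662 over vehicle. Pyridoxal kinase (Pdxk) had -0.24 and -0.19. The carbinolamine dehydratase Pcbd1 had -0.19 for epoxides over vehicle. Tph2, the tryptophan hydroxylase of neurons, was not well above background on any array.

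Only 4 of 13 amine and amino acid transporters were measured. Slc15a4, a lysosomal transporter of histidine, had 0.09 for epoxides over vehicle and -0.09 for GW9662 over vehicle. The large neutral amino acid carriers Slc7a5 and Slc7a8 had 0.13 and 0.20 for epoxides over vehicle, with 0.07 and 0.02 for GW9662 over vehicle, and their heavy chain Slc3a2 had -0.16 and -0.06. Slc18a1, the other vesicular monoamine transporter, and Slc22a3 and Slc29a4, polyspecific carriers of histamine and serotonin, were not well above background on any array. Of the kynurenine branch, which draws on the same tryptophan, 2 of 7 genes were measured in both comparisons: Haao had -0.53 and -0.02, and Afmid -0.24 and -0.16. Its entry enzymes Ido1, Ido2 and Tdo2 were not well above background on any array.

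**Figure D4:**
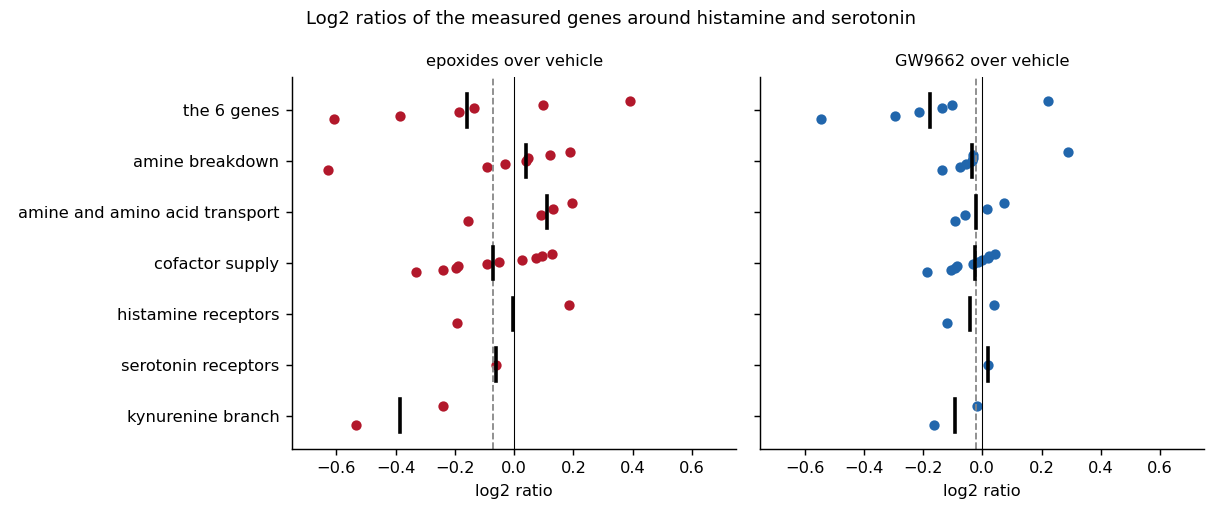
Log2 ratio (x axis) of every measured gene in the 6 pathway lists and of the 6 genes themselves, for epoxides over vehicle and GW9662 over vehicle. Black bars are list medians and the dashed line is the median of all measured genes; no gene measured on both arrays of a comparison reaches a log2 ratio of 1 in either direction.

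Receptors for the released amines were mostly dim. Of the 4 histamine receptors, Hrh1 had levels of -3.63, -3.77 and -3.81 on the epoxide, GW9662 and vehicle arrays, and Hrh4, the receptor of mast cell chemotaxis to histamine, had -2.54, -2.47 and -2.35. Their ratios were 0.19 and -0.19 for epoxides over vehicle and 0.04 and -0.12 for GW9662 over vehicle. Of 14 serotonin receptors only Htr7 was read on all arrays, at -3.40, -3.32 and -3.34. Htr1b was well above background with vehicle alone, at -4.24, so it was at least 2.52-fold lower on the epoxide array and at least 1.73-fold lower on the GW9662 array. For these bounds a dim array counted at its lowest well-detected level, or at the probe's own level where that was higher. Htr3b was well above background on the GW9662 array alone, at -4.51, at least 1.26-fold higher than with vehicle, and the epoxide array lay at least 2.08-fold below it. Both of these probes lie in rows 181 to 400, where copies of dim probes disagreed most, and neither has a second reading.

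Likeness to other genes was measured as the distance between their pairs of log2 ratios over vehicle, among 11370 other genes with a plain symbol read on all 3 arrays. Nearest to Hnmt were Hist1h1d, Arpin and H2bc23, at distances of 0.03 to 0.04, and 19 genes lay within 0.1. Nearest to Ddc were Zfp595, Rsbn1 and Dnah14, with 161 genes within 0.1. Nearest to Slc6a4 were Dmac2l, Pfas and Pim2, with 78 within 0.1, and nearest to Hdc were Asap2, Dna2 and Shb, with 85. Tph1 lay nearest to Tubb5, Got2 and Myh8 and had 660 genes within 0.1, and Slc18a2 lay nearest to Zfp622, Rnf31 and Eif4a3l1 and had 1634. Many genes thus lay near the pairs of Tph1 and Slc18a2 and few near that of Hnmt, the member farthest from vehicle. Most genes lie near 0 in both ratios, so these counts largely follow the size of a member's ratios. Each such pair rests on 3 arrays and 2 differences that share the vehicle array.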

How the data were processed

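Total RNA (200 ng per labelling, per the labels) was labelled with Cy3 and read on 3 arrays of 1 design with 60-base probes. The scanner software was Feature Extraction 11.5.1.1 (Agilent), per the submitters' processing notes. Per the file headers, the deposited gProcessedSignal is a linear intensity with background subtraction and spatial detrending applied, and probe coordinates are on mm9. The deposited value table holds a linear ratio to the 75th percentile, whose quotient with 1 scanner file per column was constant to within 0.001. The number of arrays limits the precision.

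Log2 intensity minus the log2 75th percentile over non-control spots gave levels. Spots marked as outliers (221 on the epoxide, 251 on the GW9662 and 230 on the vehicle array) were left out and copies averaged. Probes were named through RefSeq (28324 of 39429 matched), otherwise by the file's name. Each gene took the value of the probe whose level averaged highest over the arrays. It counted as measured where the majority of that probe's copies passed the software's background test on both arrays compared, and was called at 2-fold. Software error is gProcessedSigError on the log2 scale. Genes of like signal lie within 0.5 in level and 5 percentage points in GC content.

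The members and lists (124 genes, 122 found) were chosen with earlier results of these data known. Genes named were all members, up to 4 measured genes farthest from 0 per pathway list in each comparison over vehicle, receptors read on any array and the 3 nearest genes by ratio pair. Other genes, including those not above background, were named after their values were seen. 1 gene that this rule names is not reported here. Alternatives used Python 3.11.15 and limma 3.58.1 in R 4.3.3 (normexp with offset 50, quantile, cyclic loess). The steps were tested on simulated data with even noise and planted changes of more than 2-fold on detected genes. The simulation held no extra scatter in dim spots or in some rows, and no trend between arrays. It therefore does not bear on ratios as small as those of the members.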

Additional observations from a re-analysis of the deposited data

How the results depend on the processing

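No member reached 2-fold in any of 12 alternatives (scaling on detected probes, quantile normalization, cyclic loess, normexp, the authors' deposited table, leaving out rows 181 to 400, removing the trend in GC content and signal, both, the mean of a gene's probes, marked spots kept, no filter on dim probes and only bright genes). Keeping marked spots and dropping the filter on dim probes changed no member's value. At 1.5-fold, 1 member (Hnmt) was called for epoxides over vehicle, and none with scaling on detected probes, quantile normalization, cyclic loess, normexp or the authors' deposited table. With that table Hnmt was called for GW9662 over vehicle instead (-0.61). None was called either without the rows, with the rows and trend both removed or over bright genes, where Hnmt was not measured. The members' median for epoxides over vehicle was 0.0044 with quantile normalization, -0.059 with cyclic loess, 0.11 without the rows, 0.025 with the trend removed, 0.034 with both, -0.086 with the mean of probes and -0.29 over bright genes. For GW9662 over vehicle it was -0.11 with quantile normalization, -0.11 with cyclic loess, -0.039 without the rows, -0.10 with the trend removed, -0.024 with both and -0.12 over bright genes. For epoxides over GW9662 it was 0.17, 0.12, 0.15 and 0.086 with quantile normalization, cyclic loess, without the rows and with the trend removed, and 0.00098 with normexp, -0.047 with the authors' deposited table, 0.097 with the mean of probes and -0.17 over bright genes. Only 3 members are left without the rows and 2 among bright genes. The authors' deposited table holds the treated arrays' values under each other's names, which turns the sign of every ratio of epoxides over GW9662 and exchanges the comparisons over vehicle. The cause of the other shifts was not tested.

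For epoxides over vehicle the Hdc ratio was negative with normexp and the authors' deposited table (-0.22), the Tph1 ratio was positive with the trend removed (0.021), and the Slc18a2 ratio was positive with quantile normalization, without the rows, with the trend removed and with both. For GW9662 over vehicle only Hdc changed sign, to 0.099 with the authors' deposited table.

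Genes called at 2-fold for epoxides over vehicle numbered 361, and 203, 231, 143, 130, 135, 178, 44, 2956 and 15 with quantile normalization, cyclic loess, normexp, the authors' deposited table, without the rows, with the trend removed, with both, with no filter and over bright genes. The share of them that was higher was 9.42%, and 31.0%, 21.6%, 34.3%, 43.1% and 54.5% with quantile normalization, cyclic loess, the trend removed, the authors' deposited table, and the rows and trend both removed. For GW9662 over vehicle, 130 (43.1% higher) became 361 (9.42% higher) with the authors' deposited table, 3 without the rows and 3 with both (100% higher in each), 2046 with no filter and 3 over bright genes. For epoxides over GW9662, 186 (17.7% higher) became 86 with normexp, 27 without the rows, 22 with both, 2422 with no filter and 6 over bright genes, and the share higher was 39.2%, 28.9%, 39.9%, 40.7%, 72.7% and 82.3% with quantile normalization, cyclic loess, the trend removed, without the rows, with both and with the authors' deposited table. At 1.5-fold the counts were 1610, 291 and 920. No paired analysis was possible because each group has 1 array. Signal over background limits the reading of Hdc and Hnmt.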
